A study of Mus musculus with 10 samples.

Results

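Sites bound by the transcription factors STAT5A and STAT5B in the mammary gland of wild type mice were compared here. The members are all peaks of the deposited wild type STAT5A list (26237 peaks) and the wild type STAT5B list (6976 peaks), together 33213 of the 35791 peaks in the 3 lists of the series that were analysed. A STAT5A and a STAT5B peak counted as 1 shared site when they had 1 bp or more in common. This rule gave 6888 shared sites, 19349 STAT5A peaks without STAT5B and 88 STAT5B peaks without STAT5A. Shared sites made up 98.7% of STAT5B peaks and 26.3% of STAT5A peaks.

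STAT5A and STAT5B are products of neighbouring, closely related genes. Prolactin binds its receptor on the milk-producing epithelial cell, the kinase JAK2 phosphorylates the STAT5 proteins, and the phosphorylated proteins pair, enter the nucleus and bind short palindromic DNA sites near genes such as those for the caseins and the SOCS feedback inhibitors. The proteins can pair with themselves or with each other, and STAT5A is known as the form that mammary development depends on most. Here the interest is in how far the binding maps of STAT5A and STAT5B agree when both proteins are present.

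Binding was mapped by chromatin immunoprecipitation and sequencing (ChIP-seq) in bulk mammary tissue of mice that had given birth that day. The wild type group (AABB in the labels) has intact Stat5a and Stat5b. A list from Stat5a-null mice, which carry Stat5b alone (BB), served as a further readout of STAT5B binding, obtained with the same STAT5B antibody. All groups have the same labelled strain background (129SV::FVB/N::C57BL/6), and neither the age of the mice nor the number of animals behind a library is given in the sources used here. Each group is 1 library, so differences could not be checked against replicates and were not given p-values. The 95% intervals (exact Clopper-Pearson) were computed over peaks. They hold counting error alone and take neighbouring peaks as independent. The tissue holds epithelial, fat, muscle-like basal and immune cells, and peaks do not show which of them carried a site. A site bound in fewer cells and a site bound more weakly in all cells cannot be told apart. The total reads of each library are unknown.

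Peaks are named by their mm9 position, because an mm9 sequence or gene annotation was not used here. No peak was therefore placed in a gene, promoter or intron, and no binding motif was searched. The authors' score of each peak was used only as a rank within its own list, where rank 1 is the highest score and tied peaks take the best rank of the tie. Whether either antibody also recognises the other STAT5 protein was not tested.

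The 10 highest shared sites by STAT5A were also among the strongest STAT5B sites. They hold STAT5A ranks 1 to 11 except rank 3, a peak without STAT5B that is described further on. The site on chromosome 1 from 140503457 to 140503732 ranked 1 in the STAT5A list (score 261.6) and 4 in the STAT5B list (score 124.2). The site on chromosome 7 from 126090920 to 126091195 ranked 2 for STAT5A (score 246.5) and 9 for STAT5B (score 84.8). On chromosome 13, the site from 23563543 to 23563818 ranked 4 for STAT5A and 16 for STAT5B. The other 7 of the 10 highest shared sites had STAT5A ranks from 5 to 11 and STAT5B ranks from 7 to 36. They lay on chromosomes 4, 2, 8, 13, 11, 1 and 2. All 10 also held a STAT5B peak in Stat5a-null tissue, as did 90.4% of the strongest 10% of shared sites by STAT5A. Of all wild type STAT5B peaks 34.8% had one, and of all STAT5A peaks 9.67%.

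Whether a STAT5A peak had a STAT5B partner varied with its rank, and the change was gradual. Among the 2000 highest-scoring STAT5A peaks, 1986 were shared (99.3%) and only 14 were not. Among the next 10000 peaks 4859 were shared (48.6%), and these made up 70.5% of all shared sites. Among the last 14237 peaks 43 were shared (0.302%). In bins of 500 peaks, the share was 94.4% (interval 92.0% to 96.2%) at ranks 3501 to 4000 and 77.0% at ranks 5001 to 5500. It was 51.6% (47.1% to 56.1%) at ranks 6501 to 7000 and 43.6% (39.2% to 48.1%) in the next bin. The 50% point thus lay near rank 7000, close to the number of STAT5B peaks. Nearly all STAT5B peaks were shared, so a fall about even on both sides has to cross 50% near their number. From there the share fell to 17.8% at ranks 8501 to 9000 and 9.20% at ranks 9501 to 10000. No step in the list separated a shared class from a class bound by STAT5A alone.

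**Figure D1:**
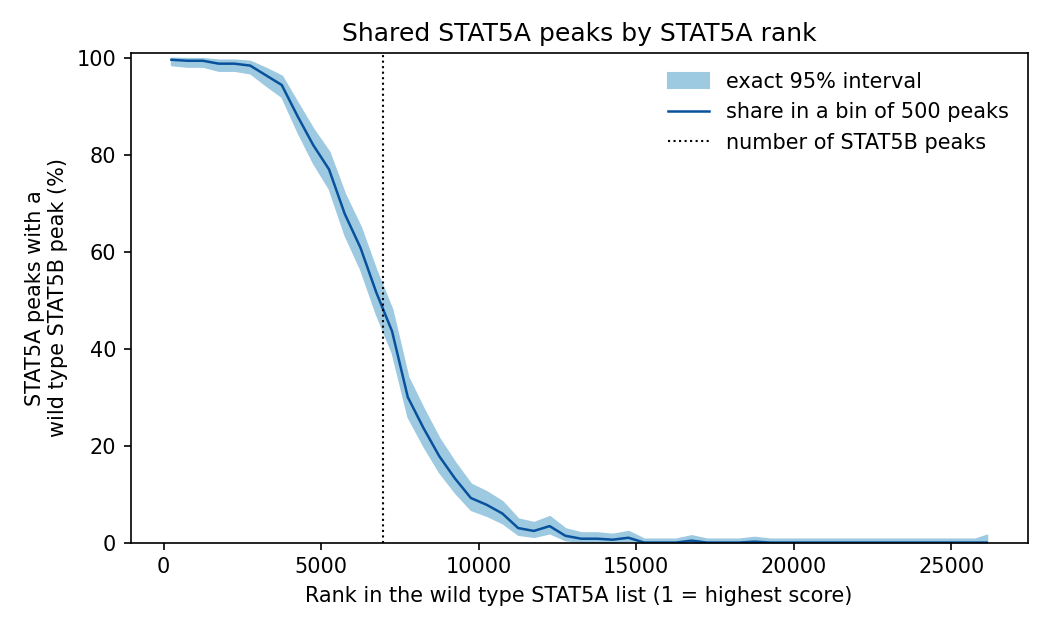
Share of STAT5A peaks that overlap a wild type STAT5B peak (vertical axis, percent) against rank in the STAT5A list (horizontal axis), in bins of 500 peaks with exact 95% intervals as the band; the dotted line marks the number of STAT5B peaks (6976). The share is 99.6% in the first bin, 51.6% at ranks 6501 to 7000 and near 0 in the weaker part of the list.

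Both lists also put the shared sites in much the same order. Over the 6888 shared sites the Spearman correlation between STAT5A and STAT5B score was 0.90. It is a description across sites that share 1 tissue and, per library, 1 depth. Of the 1722 sites in the strongest 25% by STAT5A, 86.6% were in the strongest 25% by STAT5B, and only 5 were in the weaker 50%. The share in the same quartile was lower for sites of middle strength. A middle quartile can be left upward or downward and an end quartile in a single direction, and what this contributes was not tested. In the next 3 quartiles by STAT5A, 64.1%, 50.1% and, for the weakest, 71.7% of sites were in the same quartile by STAT5B.

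In the strongest 10% of the shared sites, the STAT5B rank had a median of 354 and ran from 81 to 807 between its 10th and 90th percentiles. In the fifth decile the median STAT5B rank was 3172 (2158 to 4658), and in the weakest 10% it was 6109 (4901 to 6804). Each decile therefore spanned a wide range of STAT5B ranks, and neighbouring deciles overlapped. Equal numbers of the highest peaks of both lists agreed less at the very top than further down. Of the 100 highest STAT5A peaks 72 (72%, 62.1% to 80.5%) overlapped one of the 100 highest STAT5B peaks. Only 88 of those 100 STAT5B peaks overlapped a STAT5A peak of any rank, so no more than 88 could agree. The share was 82% (78.3% to 85.3%) for the 500 highest, 83.3% for the 1000 highest and 87.0% (85.7% to 88.2%) for the 3000 highest. It then held between 86.7% and 87.3% up to the 6976 highest.

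**Figure D2:**
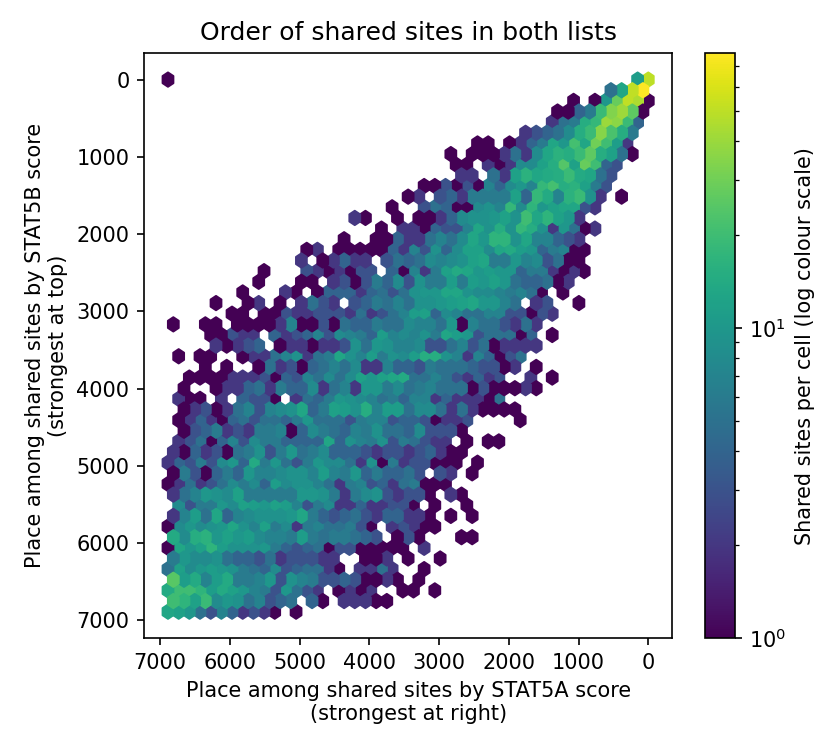
Place of each of the 6888 shared sites by STAT5A score (horizontal axis, strongest at the right) and by STAT5B score (vertical axis, strongest at the top), with the number of sites per hexagon on a log colour scale. Sites are most tightly ordered at the strong end and spread widest in the middle, and 1 site at the upper left is strong for STAT5B and weak for STAT5A. The ends of each ranking limit the spread there.

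The positions of the paired peaks matched closely, and more so at strong sites. The STAT5B centre lay at a lower coordinate than the STAT5A centre at 3413 sites, at a higher one at 3380 and at the same base at 95, with a median shift of 0 bp. The distance between centres had a median of 15 bp (quartiles 7 and 28 bp) in the strongest 10% of shared sites and 23 bp (10 and 40 bp) in the weakest. Few of the shared sites depended on where the overlap rule was set. Only 7 shared sites overlapped by 50 bp or less, the smallest by 21 bp, with STAT5A ranks from 2262 to 7874. Just outside, 8 STAT5A peaks were within 50 bp of a STAT5B peak without touching it, at ranks from 664 to 7710. Stricter rules enlarged the small class of STAT5B peaks without STAT5A. They left 98.3% or 97.96% of STAT5B peaks shared instead of 98.7%.

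The STAT5A peaks without STAT5B were mostly weak. Their median STAT5A score was 21.3, against 72.3 for the shared peaks, a difference that the fall of sharing with rank already contains. The few strong ones had specific positions. A pair of neighbouring peaks on chromosome 11, from 3045078 to 3045353 (rank 3) and from 3045844 to 3046119 (rank 24), had no STAT5B peak within 246 kb. They lay next to the unsequenced start of the chromosome, and what this position contributes was not tested. Most of the other strong ones stood beside a STAT5B peak. The peak on chromosome 7 from 130190500 to 130190775 (rank 664) was 12 bp away from one of rank 1557. On chromosome 1, the peak from 55742367 to 55742642 (rank 859) was 26 bp away from one of rank 904, and the peak from 90970503 to 90970778 (also rank 859) was 252 bp away from one of rank 1050. All 3 of these overlapped a STAT5B peak of Stat5a-null tissue. Of the 10 highest STAT5A peaks without wild type STAT5B, 4 did so, these 3 included. In the highest-scoring decile 8 of the 20 did (40%). Of shared sites, 90.4% did at STAT5A ranks 1 to 690, 73.7% at ranks 690 to 1380, 61.0% at ranks 1380 to 2079 and 41.9% at ranks 2079 to 2775.

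On chromosome 11, the peak from 5399968 to 5400243 (rank 1331) lay 430 bp from the STAT5B peak of rank 40, and on chromosome 16 the peak from 96757166 to 96757441 (rank 1463) lay 89 bp from one of rank 2216. Neither overlapped a Stat5a-null STAT5B peak. On chromosome 9, the peak from 75974302 to 75974577 (rank 1422) was 14.4 kb from any wild type STAT5B peak, yet it held a STAT5B peak in Stat5a-null tissue. Over the highest-scoring decile, 10 of the 20 STAT5A peaks without STAT5B lay within 500 bp of a STAT5B peak. The share was 6.30% of 254 in the second decile and 0.527% over all 19349. Within a list, the smallest distance between peak centres was 563 bp for STAT5A and 509 bp for STAT5B.

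Stronger STAT5A peaks without STAT5B lay closer to shared sites than weak ones did. Their median distance to the nearest shared site was 23.5 kb (quartiles 4.84 and 117 kb) in the second decile of STAT5A score and 83.5 kb (24.8 and 238 kb) in the lowest. Within 10 kb of a shared site lay 34.6% (28.8% to 40.8%) of the former and 9.38% (8.29% to 10.6%) of the latter. The median distance to any other STAT5A peak also grew, from 5.56 kb to 14.5 kb. Both measures moved together, and the part of crowding in the first was not tested.

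Shared peaks and STAT5A peaks without STAT5B were then compared at like STAT5A rank, over ranks 3501 to 11000, where every bin of 500 held at least 20 of each. The shares of shared peaks are weighted to the ranks of the unshared ones, and these weighted shares carry no interval. Crowding differed little between the classes. Another STAT5A peak lay within 10 kb of 58.0% (56.4% to 59.5%) of the 4136 unshared peaks and of 58.6% of the 3364 shared peaks. Within 50 kb, one lay near 87.0% (85.9% to 88.0%) of the unshared and 89.1% of the shared peaks. Chromosome X held 2.10% (1.69% to 2.59%) of the unshared and 2.01% of the shared peaks. The shared class lay inside the interval of the unshared class for 10 kb and for chromosome X, and above it for 50 kb. It had the higher share in 5 of the 15 bins for 10 kb, in 7 for 50 kb and in 8 for chromosome X.

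STAT5B binding in Stat5a-null tissue was more frequent in the shared class at like rank, though rare in both classes. It was called at 2.32% (1.88% to 2.83%) of the unshared and 3.70% of the shared peaks of like rank, 1.59 times as often, and the shared class had the higher share in 13 of the 15 bins. In the second decile 21.6% (20.002% to 23.4%) of 2370 shared and 11.4% (7.78% to 16.0%) of 254 unshared peaks had a Stat5a-null peak. In the third decile the shares were 6.75% (5.50% to 8.18%) and 3.33% (2.39% to 4.51%), and these intervals did not meet either. In the fourth decile they were 2.05% (0.887% to 3.99%) and 1.25% (0.835% to 1.81%), which do overlap. Within a decile the shared peaks scored somewhat higher for STAT5A, with medians of 68.5 and 62.2 in the second. Over all shared sites, 90.4% (87.97% to 92.5%) of the strongest 10% by STAT5A and 2.18% (1.22% to 3.57%) of the weakest 10% held STAT5B in Stat5a-null tissue.

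**Figure D3:**
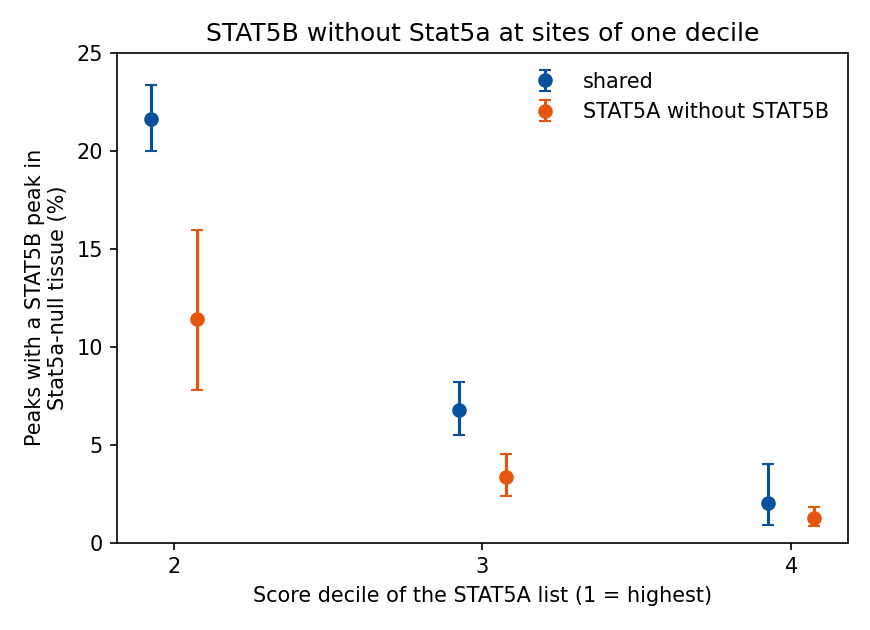
Share of STAT5A peaks that overlap a STAT5B peak of Stat5a-null tissue (vertical axis, percent) in score deciles 2 to 4 of the STAT5A list (horizontal axis), for shared peaks and for STAT5A peaks without wild type STAT5B, with exact 95% intervals as bars. The shared peaks are higher in all 3 deciles, and the intervals are separate in deciles 2 (21.6% and 11.4%) and 3.

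Chromosomes differed in the share of STAT5A peaks with STAT5B about as much as they differed in strong STAT5A peaks. On the 19 autosomes the share ran from 23.6% (21.6% to 25.7%) on chromosome 4 to 29.4% (26.8% to 32.1%) on chromosome 15. Chromosome X had 14.7% (11.8% to 17.99%), and the interval did not reach that of any autosome. The X also had the smallest part of its STAT5A peaks, 14.5%, among the 6976 highest-scoring. On every one of the 20 chromosomes the shared part and the part among the highest-scoring differed by at most 1.54 percentage points. Within deciles 2 to 4 of STAT5A score, 44.9% (36.5% to 53.6%) of 138 peaks on X were shared, against 53.2% over all chromosomes, which lies inside that interval. The interval missed 53.2% only on chromosome 18, with 45.8% (39.9% to 51.9%).

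**Figure D4:**
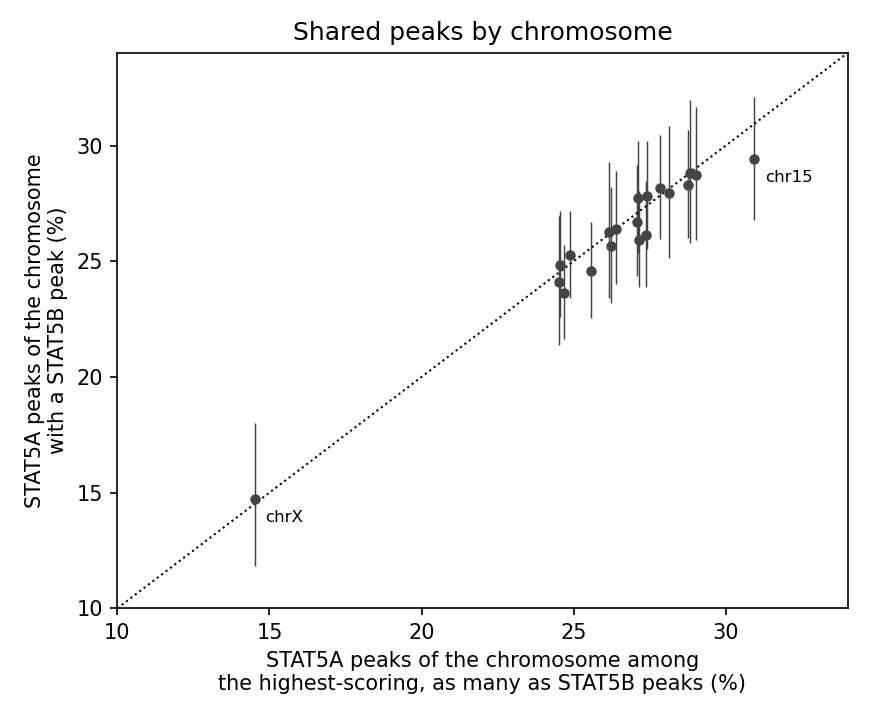
Share of each chromosome's STAT5A peaks with a STAT5B peak (vertical axis, percent, exact 95% intervals) against the share of its STAT5A peaks that are among the 6976 highest-scoring (horizontal axis, percent), for 20 chromosomes; the dotted line marks equal values. Points follow the line, from chromosome X at 14.7% to chromosome 15 at 29.4%.

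Regions dense in STAT5A peaks differed in how many were shared. Of the 2198 fixed windows of 1 Mb with a STAT5A peak, 1716 held a shared site. The window with the most was on chromosome 8 from 129000001 to 130000000, where 20 of 53 STAT5A peaks were shared and the other 33 were not. On chromosome 15 from 66000001 to 67000000, 19 of 31 were shared (61.3%), and the median STAT5A score there was 61.8. The window with the most STAT5A peaks without STAT5B was on chromosome 15 from 61000001 to 62000000, where 9 of 47 were shared, and next came chromosome 12 from 33000001 to 34000000, with 14 of 50. Sharing was rarer still in the 2 windows after them. Chromosome 7 from 87000001 to 88000000 held 38 STAT5A peaks of which 3 were shared, and 3 of the 38 ranked among the 7000 highest. On chromosome 6 from 100000001 to 101000000 none of 34 was shared.

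This last window belongs to the longest unbroken run of STAT5A peaks without STAT5B, 46 peaks on chromosome 6 from 100007723 to 101432998. The best of the 46 ranked 6003, and 2 were among the 7000 highest. The next longest runs were on chromosome X, with 36 peaks from 12038989 to 17186273 and 35 peaks from 70931040 to 82295604, and none of their peaks ranked among the 7000 highest. The longest run of shared sites was 10 peaks on chromosome 11 from 109478148 to 109634587 (median score 98.6, best rank 9). It was followed by 9 peaks on chromosome 9 from 106982558 to 107237052 (median score 81.4, best rank 33). The runs named here held STAT5A peaks of matching strength, which the fall of sharing with rank already contains.

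The 88 STAT5B peaks without STAT5A were of differing kinds, by their distance from STAT5A. Within 500 bp of a STAT5A peak lay 55, at a median gap of 267 bp. Their STAT5B ranks ran from 602 to 6972 with a median of 3626, and 3 were among the 1000 highest. The nearest STAT5A peak had a median rank of 2965, and for 30 of the 55 it had no STAT5B peak on it either (29 distinct STAT5A peaks). Of the 55, 6 (10.9%, 4.11% to 22.2%) overlapped a STAT5B peak of Stat5a-null tissue, against 34.8% of all wild type STAT5B peaks. A Stat5a-null peak that overlaps only the neighbouring STAT5A peak is not counted here. The STAT5A peaks of ranks 664 and 859 named above held one, while the STAT5B peaks beside them did not. How many of the 55 have such a neighbour was not counted.

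The other 33 were more than 500 bp from STAT5A, at a median gap of 9.58 kb and up to 1084 kb, with a median STAT5B rank of 588. Of the 33, 12 were among the 100 highest STAT5B peaks, so that 12% of those 100 stood far from STAT5A, against 0.268% of the peaks after rank 1000. Of the 33, 20 had STAT5B in Stat5a-null tissue (60.6%, 42.1% to 77.1%), and this interval did not meet that of the 55 near ones. The comparison does not hold rank fixed and takes overlap with the STAT5B peak itself. Among the 100 highest STAT5B peaks, all 88 shared ones and 10 of the 12 far ones had a Stat5a-null peak, and no near one was present. After rank 100 and up to rank 1000 the counts were 5 of 5 far and 1 of 3 near peaks, beside 84.3% of shared ones. After rank 1000 they were 5 of 16 far and 5 of 52 near peaks, beside 26.4% of shared ones.

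The highest was on chromosome 11 from 108873125 to 108873376 (rank 1), 65.8 kb from a STAT5A peak that itself ranked 17897. On chromosome 3, the peak from 5860621 to 5860872 (rank 3) had no STAT5A peak within 960 kb, and on chromosome 16 the peak from 57391507 to 57391758 (rank 6) had none within 1084 kb. Further ones were on chromosome 1 from 197067796 to 197068047 (rank 12), chromosome 6 from 3151366 to 3151617 (rank 19) and chromosome 9 from 123370992 to 123371243 (rank 44). These 3 lay within 1 Mb of an end of the sequenced chromosome, as did 5 of the 33 (15.2%, 5.11% to 31.9%), compared with 1.73% (1.43% to 2.06%) of shared sites. The part of repeated or unassembled sequence in these peaks was not tested.

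On chromosome 13 from 21826732 to 23848905, 9 of the 33 lay between ranks 28 and 5048, and 8 of the 9 had a Stat5a-null peak. The 9 had ranks 28, 71, 241, 325, 414, 588, 1097, 3730 and 5048, and the last had no Stat5a-null peak. Of shared STAT5B peaks, all 88 among the 100 highest had one. The share was 84.3% from there to rank 1000 and 26.4% after it. Whether the 9 differ from other STAT5B peaks of like rank was not tested. The same stretch held 5 shared sites and 16 STAT5A peaks without STAT5B. One of the shared sites, from 23563543 to 23563818, is the STAT5A peak of rank 4 named above. STAT5B peaks with and without STAT5A thus lay in the same stretch, though the 9 were 3.23 to 153 kb from their nearest STAT5A peak.

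**Figure D5:**
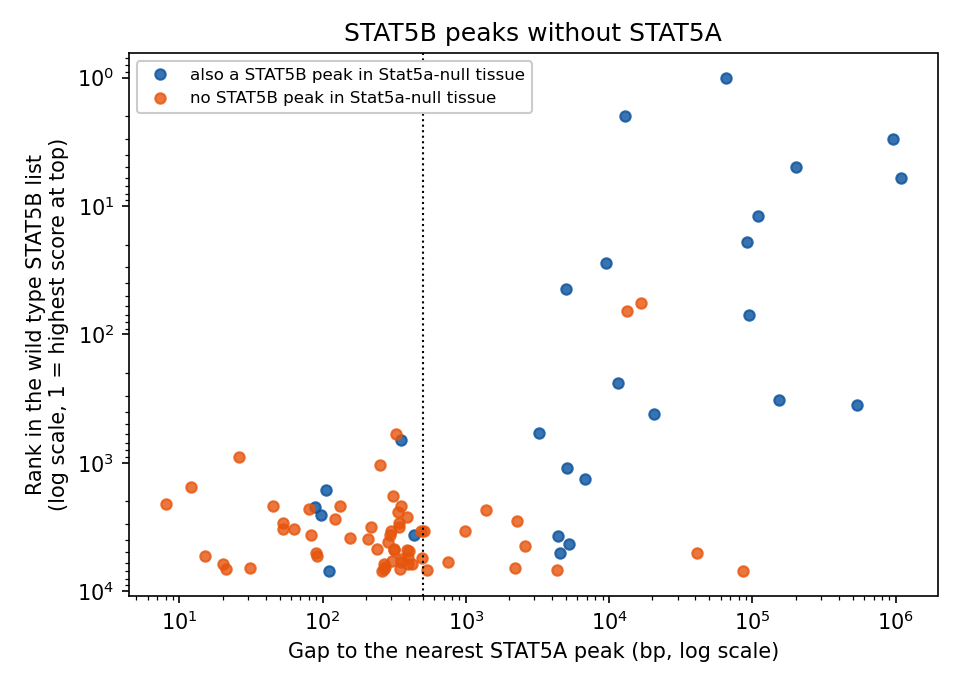
Rank in the wild type STAT5B list (vertical axis, log scale, strongest at the top) against the gap to the nearest STAT5A peak (horizontal axis, bp, log scale) for the 88 STAT5B peaks without STAT5A, coloured by whether Stat5a-null tissue has a STAT5B peak there; the dotted line marks 500 bp. The 55 peaks left of the line rank from 602 to 6972, and 12 of the 33 on the right are among the 100 highest.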

How the data were processed

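Per the labels' protocols, formaldehyde-fixed mammary tissue was sonicated, precipitated with STAT5A or STAT5B antibodies and sequenced on an Illumina HiSeq. Per the submitters' processing notes, CASAVA, BWA and HOMER were used on mm9. Their versions and roles, the control libraries and the calling thresholds are not stated in what was used here. The deposited value of each peak is a signal of unstated scale (the score), used as a rank within its list. All peaks were 276 bp wide in the STAT5A list and 252 bp in the STAT5B list. Of 10 samples, 7 were not used here.

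Groups came from sample titles. Starts were read as 0-based and printed 1-based. Each peak was compared with the nearest centre of the other list, and no STAT5A peak overlapped more than 1 STAT5B peak. Chromosome ends came from GenomeInfoDb 1.38.1, with the first 3 Mb taken as unsequenced. Intervals are exact Clopper-Pearson at 95%. With 1 library per group, no test between groups was made. Computation was in Python 3.11.15 (pandas 2.3.3, numpy 2.4.6, scipy 1.17.1), with plots from matplotlib 3.10.9. On simulated data the overlap step found 500 of 500 planted pairs among 2500 peaks, and the weighting by rank returned ratios of 0.99 and 2.09 where 1 and 2 were simulated over 26237 peaks. Planted pairs always overlapped and the other peaks lay far from STAT5A, so the overlap check covers the code alone. The shares simulated for the weighting were not those of the data.

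Members, rules and gene lists were chosen with earlier results of these data known. Named peaks are the 10 highest of each class, of which examples are printed. Because gene positions were at hand only for GRCm38, the planned gene lists, promoter shares, distances to genes and motif counts were not run. Windows, runs and comparisons at like rank were added after the data were seen.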

Additional observations from a re-analysis of the deposited data

How the results depend on the processing

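Of 24 alternative settings tried on 7 values, 20 left the value within its tolerance and 4 did not. Some alternatives kept nearly the same peaks and could hardly move a value. For the rank correlation, the higher-scoring 50% of the STAT5A list held 6870 of the 6888 shared sites, and 6809 lay outside chromosome X. The tolerance was the counting interval for a share, 0.01 for the rank correlation and, for a ratio at like rank, the relative width of the counting interval of the unshared share. The 50 kb radius passed on this measure with a ratio of 1.02, although its shared class lay above the interval of its unshared class. The share of STAT5B peaks with STAT5A was 98.3% when an overlap of 50% of both peaks was needed and 97.96% when centres had to lie within 100 bp. Cutting the STAT5A list to the length of the STAT5B list put the share of STAT5A peaks with STAT5B at 86.7%. The cut drops the lower-ranked STAT5A peaks, among which sharing was rarer. At like rank, the ratio of shared to unshared peaks on chromosome X moved from 0.957 to 0.764 in bins of 250 ranks, where the cause was not tested. The ratio for Stat5a-null STAT5B peaks stayed between 1.45 and 1.62. Without the 9 peaks on chromosome 13, 12 of 24 far STAT5B peaks (50%) had a Stat5a-null peak. All alternatives of the comparisons at like rank and of the far STAT5B peaks were added after the data were seen. The alternatives for promoter shares, distances to genes, motifs and gene lists were not run. No paired analysis was possible because each group has 1 library and the result comes from no test. The unknown read totals limit what can be said of weak sites.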

Other observations

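In clusters of STAT5A peaks that held some with and some without STAT5B, the strongest peak was mostly a shared one. Clusters are runs of 5 or more STAT5A peaks with gaps of at most 10 kb. Of the 302 clusters, 240 held peaks both with and without STAT5B, 3 held shared peaks alone and 59 held none. In the 240 mixed clusters, which had a median of 6 STAT5A peaks and 2 shared ones, the highest-scoring STAT5A peak was shared in 232 (96.7%, exact interval 93.5% to 98.6%). In 206 of them (85.8%, 80.8% to 89.99%) every shared peak scored above every unshared one. Sharing follows STAT5A rank over the whole list, and no other reference for clusters was computed.

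A few shared sites ranked very differently in the lists. They were chosen after their values were seen. By place among the shared sites, the widest gap was on chromosome 6 from 136752967 to 136753242, which ranked 10823 for STAT5A and 26 for STAT5B, with centres 127 bp apart and a STAT5B peak in Stat5a-null tissue. The next was also on chromosome 6, from 136417108 to 136417383, at STAT5A rank 18606 and STAT5B rank 3172, with centres 30 bp apart. In the other direction, the site on chromosome 1 from 82085920 to 82086195 ranked 3124 for STAT5A and 6566 for STAT5B, with centres 1 bp apart. The site on chromosome 3 from 30145979 to 30146254 ranked 2607 and 5930.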
